A study of Homo sapiens with 12 samples.

Results

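Androgens lower as well as raise genes in prostate cancer cells, and 8 genes of the lowered side are described here, all coding for proteins at the cell surface, in the secretory pathway or in transmitter metabolism: FOLH1, BCHE, DDC, OPRK1, ACKR3, PLPPR1, AMIGO2 and GASK1B. They were chosen by name, as genes known to be repressed by androgen in prostate cells or strongly lowered by dihydrotestosterone (DHT) in these libraries, and were matched by Ensembl identifier. All 8 were found among the 63677 genes of the count files, and all 8 passed the filter on low counts, which kept 26156 genes. Because the fall with DHT selected the members, it is given below as a description with no test.

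RNA-seq had been carried out in LNCaP cells, an androgen-responsive human prostate cancer line. A TALEN, an engineered nuclease, removed the start codon of Bag-1L, the longest of the cochaperone proteins made from BAG1. The Bag-1L KO line and the TALEN control line (Ctr) were each taken in full medium with serum (FM), or after 72 h in charcoal-stripped serum followed by 16 h with ethanol vehicle (EtOH) or with 10 nM DHT. The 6 groups hold 2 biological duplicates each, and the 12 libraries hold between 20826843 and 30354666 counts. In the study's methods clones were picked by serial dilution and a western blot screen for loss of Bag-1L. Whether the control line is a single clone is not stated. A difference between the lines can thus also be one of clone, and Bag-1L loss and clone cannot be told apart. FM and starved cells differ in serum, in vehicle and in every steroid that charcoal removes, so FM is not a pure androgen treatment.

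Androgen hormones act on prostate cells through transcription. DHT raises secretory genes such as KLK3, and at the same time another set of transcripts goes down. FOLH1, which codes for prostate-specific membrane antigen, is the best known of this set, since its surface protein goes up when androgen signalling is blocked and is used to image and irradiate prostate tumours. Several others are better known from the brain: DDC makes dopamine and serotonin, OPRK1 is the kappa opioid receptor, PLPPR1 and AMIGO2 are membrane proteins studied in neurite growth and neuronal adhesion, and BCHE splits choline esters.

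The libraries carried the luminal prostate profile that LNCaP cells are known for. The summed normalized counts of 7 luminal markers (KLK3, KLK2, HOXB13, FOXA1, KRT8, KRT18 and TMPRSS2) lay between 43729 and 123962 in every library. Of 3 immune markers only CD68 had enough counts to enter the fit, and it had 3 or less in every library. Basal markers summed to 32.9 or less, and COL1A1 (group means 392 to 993) was the 1 stromal marker of 4 and VWF (135 to 232) the 1 endothelial marker with a group mean above 10. PECAM1, also listed as endothelial, could not be matched to a counted identifier. Among 7 neuronal or neuroendocrine markers, CHGA had group means between 1 and 3.7 normalized counts, INSM1 and ELAVL4 had too few counts to enter the fit, and ENO2 had the highest mean in every group. BAG1 transcript itself was lower in starved KO cells (log2 fold change −1.04, SE 0.125, adjusted p = 7.12e-15), but the TALEN edit removes a start codon and not the transcript, so this value is no check of the loss of Bag-1L. In bulk RNA such as this, fewer cells of a type and less RNA per cell cannot be told apart.

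Promoter sequence was available from RefSeq (GRCh38.p14) for 5 of the 8 genes, DDC, PLPPR1, AMIGO2, GASK1B and BCHE, as 9 windows of 300 bases that run from 250 bases before a transcription start to 50 after it. The 250 bases upstream of 4 starts are shown because these genes fall together with DHT and yet differ in sequence. Capitals mark a match to the hormone response half-site AGAACA or to the AP-1 motif TGANTCA, read on both strands, and PLPPR1 holds neither.
PLPPR1, chr9:101028477-101028726, plus strand: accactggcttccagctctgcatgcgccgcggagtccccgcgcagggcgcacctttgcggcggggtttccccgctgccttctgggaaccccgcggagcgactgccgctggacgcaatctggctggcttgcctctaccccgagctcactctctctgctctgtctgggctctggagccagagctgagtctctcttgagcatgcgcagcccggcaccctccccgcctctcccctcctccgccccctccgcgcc
AMIGO2, chr12:47079952-47080201, minus strand: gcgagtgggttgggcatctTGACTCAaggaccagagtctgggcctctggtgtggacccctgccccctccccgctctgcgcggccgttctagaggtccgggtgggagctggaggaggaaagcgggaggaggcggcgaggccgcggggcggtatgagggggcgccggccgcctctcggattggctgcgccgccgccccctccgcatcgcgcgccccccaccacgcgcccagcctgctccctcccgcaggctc
GASK1B, chr4:158172374-158172623, minus strand: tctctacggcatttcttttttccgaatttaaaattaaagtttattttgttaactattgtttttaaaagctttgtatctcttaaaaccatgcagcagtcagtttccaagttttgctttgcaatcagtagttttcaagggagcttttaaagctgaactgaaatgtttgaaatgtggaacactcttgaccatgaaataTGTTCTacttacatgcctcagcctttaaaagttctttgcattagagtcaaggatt
BCHE, chr3:165837424-165837673, minus strand: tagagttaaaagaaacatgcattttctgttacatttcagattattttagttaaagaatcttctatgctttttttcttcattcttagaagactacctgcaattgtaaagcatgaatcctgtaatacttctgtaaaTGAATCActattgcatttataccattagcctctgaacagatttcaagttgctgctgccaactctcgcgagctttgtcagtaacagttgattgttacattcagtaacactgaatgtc

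The full palindromic hormone response element searched for, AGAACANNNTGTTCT, was in none of the 9 windows, and it was in 1 of the 35116 RefSeq windows of the same length (0.00285%). The half-site AGAACA, which is contained in that element, was in both GASK1B windows, 55 bases upstream of the start shown above and 44 bases downstream of the other start, and 14.8% of all windows held it. The AP-1 motif lay 231 bases upstream of the AMIGO2 start and 116 bases upstream of the BCHE start, against 7.71% of all windows. The forkhead motif TGTTTAC was in none of the members' windows and in 3.42% of all windows. GC content ran from 75.3% in the AMIGO2 window to 35.7% in the GASK1B window shown. These are matches of letters in a short window, and enhancers often lie far from a start site.

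FOLH1 (ENSG00000086205, 23 exon blocks at chr11:49166644-49230190 of GRCh37, minus strand) codes for a carboxypeptidase that removes glutamate from folates and from the neuropeptide NAAG. Its normalized counts (counts divided by the DESeq2 size factor of the library) were 15068 and 15086 in the 2 Ctr EtOH libraries, 5879 and 6444 in Ctr DHT, and 10187.5 and 10691 in Ctr FM. In the KO line they were 21592 and 22082 in EtOH, 12990.2 and 12431 in DHT, and 11972 and 12129 in FM. No pair of the 6 groups overlapped, the KO line was higher in every medium, and KO cells with DHT were still above Ctr cells in FM. FOLH1 was lower with DHT by 1.29 on the log2 scale in control (SE 0.089) and by 0.78 in KO (SE 0.088), the smallest fall among the members in KO and the smallest but that of OPRK1 in control. Of the 50-base words in its exons, 20.8% also occur in another gene, nearly all of them in FOLH1B, so reads from those exons may have been discarded or split, but FOLH1B itself had group means of 8 normalized counts or less.

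BCHE (ENSG00000114200, chr3:165490692-165555250, minus strand) codes for butyrylcholinesterase, a secreted enzyme that splits choline esters. The Ctr libraries held 717 and 639.6 normalized counts in EtOH, 110.0 and 154 in DHT, and 215 and 212 in FM. The KO libraries held 1269 and 1219 in EtOH, 509.9 and 503 in DHT, and 191 and 227 in FM. The lines were apart in both starved conditions and overlapped in FM, where the KO pair enclosed the control pair. With DHT, BCHE was lower by 2.36 (log2, SE 0.170) in control and by 1.30 (SE 0.149) in KO.

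DDC (ENSG00000132437, chr7:50526134-50633102, minus strand) codes for aromatic L-amino acid decarboxylase, the enzyme that forms dopamine and serotonin from their precursors. In control it was at 2231.5 and 2596 normalized counts in EtOH, 539 and 605 in DHT, and 428.5 and 456 in FM. In KO it was at 6767 and 6231 in EtOH, 2491 and 2450.2 in DHT, and 1331 and 1242 in FM. Each KO group lay above the control group of the same medium, and the KO DHT pair fell inside the range of the Ctr EtOH pair. The difference with DHT was −2.08 (log2, SE 0.122) in control and −1.40 (SE 0.115) in KO.

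ACKR3 (ENSG00000144476, chr2:237476430-237490997, plus strand) codes for an atypical chemokine receptor, also called CXCR7, that binds and clears the chemokine CXCL12. Control libraries held 5220.5 and 5297 normalized counts in EtOH, 1225 and 1147 in DHT, and 525 and 475 in FM. KO libraries held 8548 and 8043.5 in EtOH, 3331 and 3509 in DHT, and 649 and 601 in FM. None of the 6 groups overlapped, and FM was below DHT in both lines. The difference with DHT was −2.15 (log2, SE 0.103) in control and −1.28 (SE 0.10) in KO.

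PLPPR1 (ENSG00000148123, chr9:103791009-104087417, plus strand) codes for a brain-enriched membrane protein related to lipid phosphate phosphatases. It stood at 485 and 380.0 normalized counts in Ctr EtOH, 41.4 and 37.3 in Ctr DHT, and 36.4 and 39.9 in Ctr FM. The KO line gave 1188 and 1237 in EtOH, 188 and 228 in DHT, and 44.8 and 40.6 in FM. KO cells with DHT thus remained well above the control cells with DHT, while in FM the KO pair lay just above the control pair, and the Ctr DHT pair overlapped both. With DHT, PLPPR1 was lower 11-fold in control (log2 −3.46, SE 0.234) and 5.84-fold in KO (log2 −2.55, SE 0.176).

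AMIGO2 (ENSG00000139211, chr12:47469490-47473742, minus strand) codes for a leucine-rich repeat and immunoglobulin domain adhesion protein. Control libraries held 198 and 211 normalized counts in EtOH, 33.3 and 26.2 in DHT, and 22.1 and 28.2 in FM. KO libraries held 176 and 192 in EtOH, 30.7 and 29.9 in DHT, and 19.6 and 16.4 in FM. The KO DHT pair lay inside the range of the Ctr DHT pair, and the KO pairs lay just below the control pairs in EtOH and in FM. The fall with DHT was close in size in the lines, at −2.78 (log2, SE 0.293) in control and −2.61 (SE 0.287) in KO.

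GASK1B (ENSG00000164125, chr4:159045626-159094470, minus strand) codes for a Golgi-associated kinase-like protein formerly named FAM198B. Its normalized counts were 598 and 548 in Ctr EtOH, 59.6 and 57.5 in Ctr DHT, and 147 and 129 in Ctr FM. In KO they were 306 and 375 in EtOH, 71.0 and 51.8 in DHT, and 45.7 and 46.0 in FM. As for AMIGO2, the highest pair was in control EtOH, and the KO pairs were lower in EtOH and in FM and enclosed the control pair in DHT. The difference with DHT was −3.29 (log2, SE 0.222) in control and −2.46 (SE 0.218) in KO.

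OPRK1 (ENSG00000082556) codes for the kappa opioid receptor, an inhibitory G protein-coupled receptor for dynorphins, and is the scarcest member. It was at 25.7 and 20.9 normalized counts in Ctr EtOH, 21.2 and 13.1 in Ctr DHT, and 5.5 and 8.8 in Ctr FM. In KO it was at 113.0 and 121 in EtOH, 22.6 and 30.9 in DHT, and 14 and 16.4 in FM. The EtOH pair and the DHT pair overlapped in control, so the fall was seen in the KO line, where the log2 difference was −2.14 (SE 0.385) against −0.44 (SE 0.456) in control. KO EtOH stood apart from all other groups, the nearest of which had at most 30.9.

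**Figure D1:**
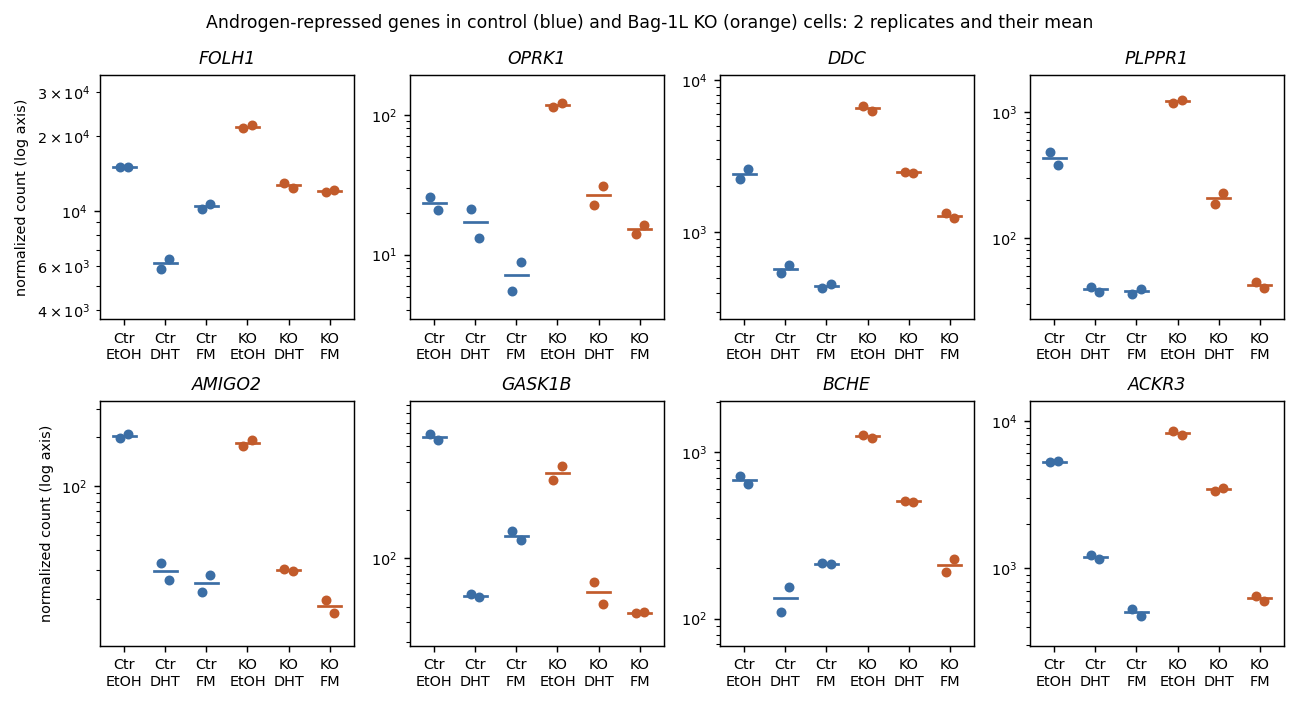
Normalized counts (log axis, scaled separately for each gene) of the 8 androgen-repressed genes in the 6 groups, control in blue and Bag-1L KO in orange. Points are the 2 replicates and the line is their mean, and EtOH is the highest group of each line for every gene.

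Per kilobase of exon, which allows levels to be set side by side between genes, FOLH1 and ACKR3 were the most abundant members. In Ctr EtOH, FOLH1 had a mean level of 2826 normalized counts per kilobase, ACKR3 2540.0, DDC 783, BCHE 221, PLPPR1 119, GASK1B 72.7, AMIGO2 51.6 and OPRK1 4.11. In KO EtOH the order at the top was FOLH1 at 4093, ACKR3 at 4008 and DDC at 2107. OPRK1 stayed the scarcest there too, at 20.7.

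Set together, DHT left the median member 2.25 lower on the log2 scale in control and 1.77 lower in KO, beside medians of −0.02 and −0.01 over all genes tested. In control, 7 of 8 members passed the threshold of the study (adjusted p at most 0.05 and fold change at least 1.5) in the downward direction, where 5.37% of all genes tested did, and in KO 8 of 8 did, where 3.24% of all genes did. These counts describe the choice of members and nothing is read from them. The fitted log2 fall in KO was a smaller one than in control for 7 of 8 genes: it was 54.9% of the control fall for BCHE, 59.5% for ACKR3, 60.5% for FOLH1, 67.2% for DDC, 73.6% for PLPPR1, 74.8% for GASK1B and 93.7% for AMIGO2. OPRK1 was the exception, with a larger fall in KO. Since both falls chose the members, their difference was not tested. The share of all genes with a smaller fall in KO was not computed, so the 7 of 8 is not read as a trait of the members. Among the 60 genes with the largest control falls and a mean of at least 100 normalized counts, most of those outside the members also fell less in KO. CAMK2N1 was 1 of them (log2 −2.76 in control and −1.96 in KO). The exceptions, which fell more in KO, were PMP22 (−1.87 and −2.07), MCTP1, COLEC12 and RASL11A. These genes were ranked by the control fall, and no test was made on them.

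**Figure D2:**
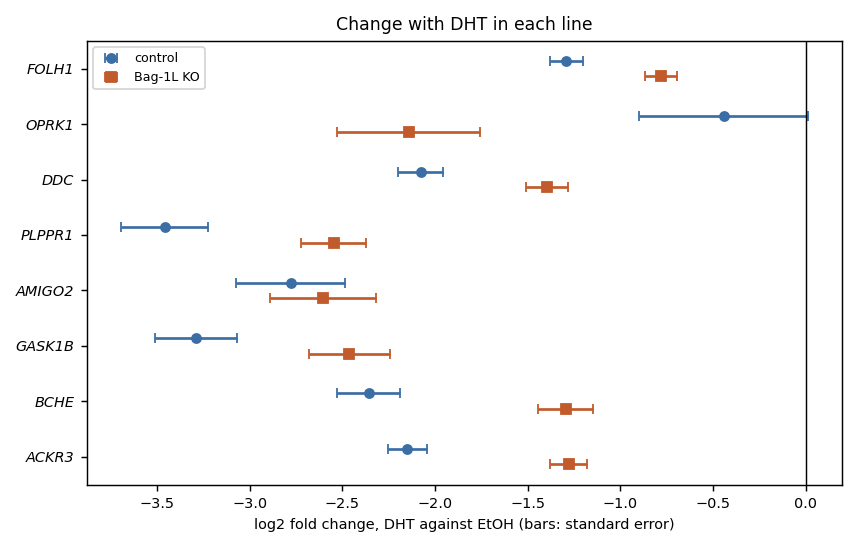
Fitted log2 fold change of DHT against EtOH (horizontal axis) for each gene, with its standard error, in control (blue circles) and Bag-1L KO (orange squares). All 16 values lie below 0, from −3.46 to −0.44, and the KO value is nearer to 0 for every gene but OPRK1.

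Whether the level of these genes differed between the KO and control lines was tested over the starved cells. A fall with DHT of equal size in both lines cancels in this comparison, while a fall of unequal size enters the value. In starved cells, with EtOH and DHT weighted equally, 6 of 8 members were higher in KO and none was lower, beside 4.76% of all genes tested that were higher and 3.27% that were lower. This count is not free of the choice of genes. The fall of OPRK1 was clear only in KO, and its high KO EtOH level enters both that fall and this comparison. The median member differed by 1.25 on the log2 scale, against −0.02 over all genes. The largest differences were those of PLPPR1 and DDC: PLPPR1 was raised 3.84-fold (log2 1.94, SE 0.146, adjusted p = 1.83e-37) and DDC 3.41-fold (log2 1.77, SE 0.084, adjusted p = 6.55e-96).

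OPRK1, BCHE, ACKR3 and FOLH1 followed. OPRK1 was raised by 1.48 (log2, SE 0.298, adjusted p = 1.2e-05) and BCHE by 1.41 (SE 0.113, adjusted p = 4.49e-33). ACKR3 was raised 2.13-fold (log2 1.09, SE 0.072, adjusted p = 1.36e-49) and FOLH1 1.73-fold (log2 0.79, SE 0.063, adjusted p = 5.96e-34). The OPRK1 pairs with DHT nearly touched (22.6 in KO and 21.2 in control). The call of each of the 6 genes that passed was kept when any 1 of the 12 libraries was left out.

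AMIGO2 and GASK1B did not pass. The log2 difference of AMIGO2 was −0.06 with a 95% interval from −0.46 to 0.34 (adjusted p = 0.873), and its sign turned without Ctr DHT replicate 1, to 0.03. That of GASK1B was −0.33 with an interval from −0.64 to −0.03 (adjusted p = 0.104). The intervals of both lie wholly below those of the 6 genes that rose, the lowest of which was 0.67 for FOLH1.

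Split by condition, and as a description only, the difference between the lines was larger with DHT than with EtOH for PLPPR1 (log2 2.40 and 1.49), DDC (2.11 and 1.43), BCHE (1.94 and 0.88), ACKR3 (1.53 and 0.66) and FOLH1 (1.05 and 0.53). For OPRK1 it was larger with EtOH, at 2.33 against 0.63. For GASK1B it was −0.75 with EtOH and 0.08 with DHT, so its value over both conditions averages a lower level in EtOH with a level in DHT whose pairs overlapped.

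**Figure D3:**
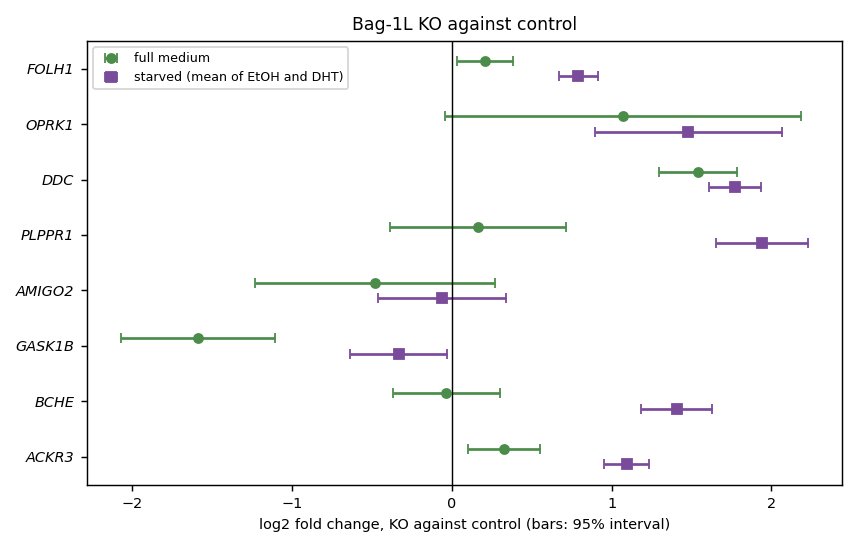
Log2 fold change of Bag-1L KO against control with its 95% interval for each gene, in full medium (green circles) and in starved cells as the mean of EtOH and DHT (purple squares). The starved values of 6 genes lie between 0.79 and 1.94, and in full medium DDC (1.54) and GASK1B (−1.59) are the values that passed the test.

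Of 935 other genes lowered by DHT in control, 226 (24.2%) were higher in starved KO cells and 33 (3.53%) were lower, with a median of 0.30 on the log2 scale. These 935 genes were picked by the same contrast as most of the members, and no test of the members against them was made. Of the 7 neuronal or neuroendocrine markers, 4 received an adjusted p in this comparison and 1 passed: ENO2, a glycolytic enzyme of neurons and many other cells, was higher in KO (log2 1.09, SE 0.135, adjusted p = 3.85e-14). The 5 of these markers that entered the fit summed to 476 to 484 normalized counts in KO EtOH against 241 to 267 in Ctr EtOH. With DHT their sum was 378 to 399 in KO against 244 to 251 in control. ENO2 made up most of the sum in these groups. NCAM1 (group means 15.6 to 55.6) differed by 0.74 (adjusted p = 0.0567), RBFOX3 (15.6 to 27.2) by 0.59 (adjusted p = 0.269) and SYP (25.7 to 71.6) by −0.29 (adjusted p = 0.4), while CHGA, INSM1 and ELAVL4 were at or near 0. In full medium SYP was the 1 of these markers that passed between the lines, and it was higher in KO (log2 1.06, SE 0.361, adjusted p = 0.0244). The part of the ENO2 difference in the members' values was not tested.

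**Figure D4:**
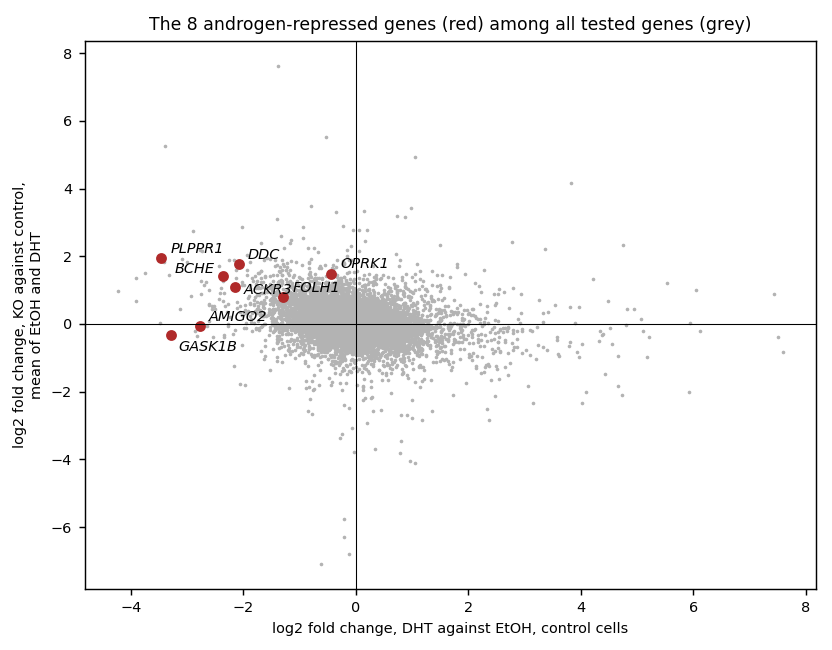
Each grey point is 1 of the 17028 genes tested, placed by its log2 fold change with DHT in control (horizontal) and in starved KO against control cells (vertical), with the 8 androgen-repressed genes in red. The red points run from −3.46 to −0.44 on the horizontal axis, which the choice of genes used. On the vertical axis, which the rule of choice does not name but which falls of unequal size enter, 6 of 8 lie between 0.79 and 1.94. The genes were chosen with earlier results of these data known.

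In full medium the lines were closer. Of the 8 members 1 was higher in KO and 1 was lower, where 5.41% of all genes tested were higher and 2.6% lower, and the median difference was 0.18 (all genes, −0.01). DDC was 2.91-fold higher (log2 1.54, SE 0.126, adjusted p = 2.04e-31), nearly the size seen in starved cells. GASK1B was 3.01-fold lower (log2 −1.59, SE 0.245, adjusted p = 1.02e-08), with 46 normalized counts in both KO libraries and 129 and 147 in control.

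ACKR3 passed on p but not on size in FM, at 1.25-fold (log2 0.33, SE 0.116, adjusted p = 0.0323). The others did not pass: FOLH1 at 0.21 (adjusted p = 0.0829), OPRK1 at 1.07 (adjusted p = 0.179, with a 95% interval from −0.04 to 2.18 at its low counts), PLPPR1 at 0.16 (adjusted p = 0.741), AMIGO2 at −0.48 (adjusted p = 0.405) and BCHE at −0.04 (adjusted p = 0.92). The BCHE estimate changed sign without KO FM replicate 1, to 0.09. For PLPPR1 the interval of the difference in FM, from −0.39 to 0.71, ends below the interval in starved cells, which begins at 1.66, and for BCHE the FM interval ends at 0.30 and the starved one begins at 1.19. Among the 935 other genes lowered by DHT in control, 14.2% were higher and 5.99% lower in KO in FM.

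Full medium contains androgens and other steroids of serum, and the place of FM cells between EtOH and DHT differed from gene to gene. On a scale that sets EtOH at 0% and DHT at 100% of the log2 fall, control FM lay at 41.1% for FOLH1, 62.4% for GASK1B and 70.0% for BCHE, at 101% for PLPPR1, 109% for AMIGO2 and 118% for DDC, and at 158% for ACKR3. In KO the positions ran from 110% for FOLH1 to 199% for BCHE and 292% for ACKR3. They are divided by the KO fall, which was smaller than the control fall for every member but OPRK1. The share of all genes past 100% was not computed, so the positions are a description only. OPRK1 in control gives no usable position, since its EtOH and DHT pairs overlapped.

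FM was then set against the midpoint of EtOH and DHT, which weights both starved groups equally. The size of the falls that chose the genes still enters, since a gene with equal levels in FM and DHT lies below its midpoint. PLPPR1 in control, at 101%, is such a gene. The counts of members in this comparison are thus not free of the choice of genes. In control, 5 of 8 members were lower in FM, where 10.3% of all genes tested were: ACKR3 5.00-fold (log2 −2.32, SE 0.098, adjusted p = 9.03e-121), PLPPR1 (log2 −1.77, SE 0.234), AMIGO2 (−1.63, SE 0.295), OPRK1 (−1.47, SE 0.503, adjusted p = 0.0123) and DDC (−1.41, SE 0.112). The OPRK1 call was lost without Ctr FM replicate 1 (adjusted p = 0.159), without Ctr FM replicate 2 (0.0639), without Ctr DHT replicate 1 (0.0532) and with the control libraries fitted alone (0.0719). BCHE differed by −0.49 (adjusted p = 0.00427), short of the fold minimum, and passed without Ctr DHT replicate 1 (−0.60), while GASK1B (−0.41, adjusted p = 0.0727) and FOLH1 (0.12, adjusted p = 0.249) did not pass. Of the 935 other genes lowered by DHT, 34.3% were lower in this comparison.

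In the KO line 7 of 8 members were lower in FM than the midpoint, where 8.05% of all genes tested were. PLPPR1 was 11.7-fold lower (log2 −3.55, SE 0.213, adjusted p = 4.33e-60) and ACKR3 8.52-fold lower (log2 −3.09, SE 0.095, adjusted p = 4.85e-230). AMIGO2 fell by 2.05 on the log2 scale, BCHE by 1.93, OPRK1 by 1.88, GASK1B by 1.66 and DDC by 1.64. FOLH1 differed by −0.47 (adjusted p = 1.56e-08), under the fold minimum. Of the 935 other genes, 45.1% were lower.

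The difference between the lines in this step was tested as well, and falls of unequal size enter it too. By construction this difference equals the line difference in full medium minus that in starved cells, so it restates both comparisons. It was negative for all 8 genes (median −0.68 on the log2 scale, 0.01 over all genes) and passed for 4 of the 7 that DESeq2 gave an adjusted p, where 1.3% of all genes passed in this direction. PLPPR1 led (log2 −1.78, SE 0.316, adjusted p = 8.46e-06), followed by BCHE (−1.44, SE 0.206, adjusted p = 4.64e-09), GASK1B (−1.26, SE 0.291, adjusted p = 0.00189) and ACKR3 (−0.77, SE 0.136, adjusted p = 8.46e-06). GASK1B missed the threshold without Ctr FM replicate 1, KO FM replicate 1 or KO FM replicate 2 (adjusted p = 0.0561, 0.0683 and 0.0761). FOLH1 sat just under the fold minimum (log2 −0.58, SE 0.108, adjusted p = 2.74e-05) and passed without Ctr FM replicate 1, among other settings. DDC (−0.23, adjusted p = 0.343) and AMIGO2 (−0.42, adjusted p = 0.568) did not pass.

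**Figure D5:**
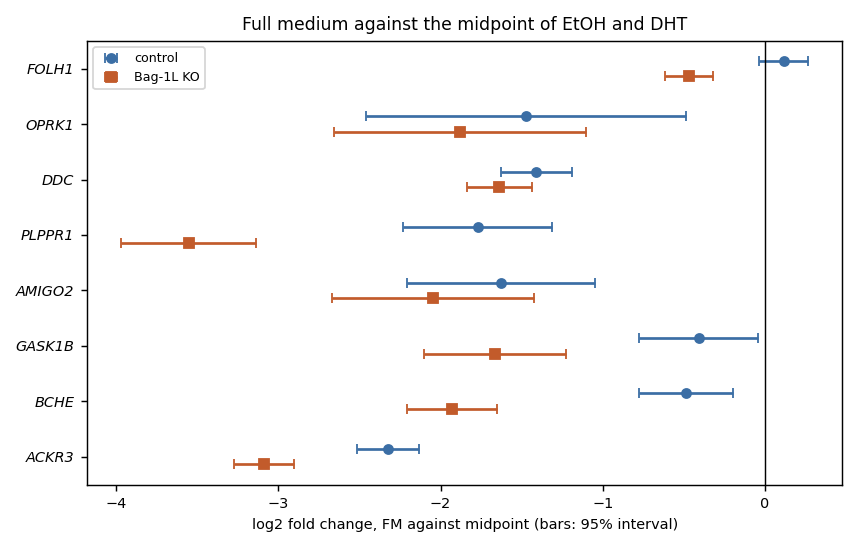
Log2 fold change of full medium against the midpoint of EtOH and DHT, with its 95% interval, for each gene in control (blue circles) and Bag-1L KO (orange squares). Every KO value lies to the left of its control value, with the widest gap for PLPPR1 (−1.77 in control and −3.55 in KO), and FOLH1 in control lies at 0.12.

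Relatives of the members behaved in their own ways, and most were scarce. Among relatives of FOLH1, NAALADL2 was higher in KO, by 0.86 in starved cells (log2, adjusted p = 7.67e-10) and by 0.82 in FM (adjusted p = 0.000129), and it was the 1 of 4 that passed in either comparison. Of 6 opioid receptors and opioid peptide precursors, OPRL1, the nociceptin receptor, was the 1 that received an adjusted p, and it was higher in KO by 0.70 in starved cells (adjusted p = 3.54e-05) and by 0.74 in FM (adjusted p = 0.0214). PDYN, which codes for the precursor of the dynorphins that OPRK1 binds, had group means of 3 normalized counts or less.

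Of 10 genes of amine synthesis, storage and breakdown, 6 were in the fit, and none was higher in starved KO cells as DDC was. TPH2, the neuronal tryptophan hydroxylase that supplies the substrate of DDC for serotonin, was lower there (log2 −1.08, SE 0.232, adjusted p = 4.25e-05), and TH, which supplies it for dopamine, had too few counts to enter the fit. MAOA, which oxidises the amines that DDC makes, was abundant, with group means from 13028.5 in KO EtOH to 32641 in Ctr DHT, and its fitted difference with DHT was positive, at 0.90 in control and 1.05 in KO. SLC18A2, the vesicular transporter, had group means from 266 to 407 and passed in neither comparison of the lines.

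Among chemokine partners of ACKR3, CXCL12 had too few counts to enter the fit, and CXCR4, the classical CXCL12 receptor, had group means of 4.8 to 6.9 normalized counts in EtOH and of 22.2 to 35.4 in DHT, opposite in direction to ACKR3. None of the 7 genes of that list passed between the lines, but only 2 received an adjusted p in starved cells and 1 in FM. CXCR4 received none in FM, where its group means were 6.2 in control and 21.3 in KO (log2 1.77, SE 0.655). Of the BCHE group, ACHE, the main acetylcholinesterase, had group means from 4.6 to 22 and PRIMA1, its membrane anchor, from 55.5 to 122. None of 6 passed between the lines, where 3 received an adjusted p in starved cells and 2 in FM. PLPPR2 (group means 1209 to 2457) differed by 0.26 in starved cells and 0.47 in FM between the lines, both under the fold minimum, and AMIGO1 (455 to 591) by 0.14 and −0.06. Of 5 secretory kinases related to GASK1B, 4 received an adjusted p between the lines and none passed. FAM20C was lower in FM than the midpoint in control (log2 −1.56, adjusted p = 3.03e-08) and in KO (−1.66, adjusted p = 1.28e-09).

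A further 7 genes known to be lowered by androgen were set beside the members, of which 3 passed as lower with DHT in control (CAMK2N1, CCN3 and MET) and HSD17B6 (0.05), UGT2B15 (−0.28), ERBB2 (−0.30) and UGT2B17 (−0.54) did not. In starved KO cells 5 of the 7 were higher and none lower, where 4.76% and 3.27% of all genes tested were: CCN3 by 1.15 (log2, adjusted p = 4.34e-05), CAMK2N1 by 0.89 (adjusted p = 3.95e-19), HSD17B6 by 0.87 (adjusted p = 0.000104), UGT2B17 by 0.85 (adjusted p = 1.49e-06) and UGT2B15 by 0.70 (adjusted p = 5.09e-06). UGT2B15 and UGT2B17 are near-identical enzymes that glucuronidate DHT, so reads may be split between them. Against the midpoint in control, 3 were higher in FM, where 8.19% of all genes were, and 3 were lower. UGT2B15 (log2 2.91) and UGT2B17 (2.53) led the higher ones, opposite in direction to the 5 members that passed there. In FM, HSD17B6 was higher in KO (log2 1.05) and MET, the receptor of hepatocyte growth factor, lower (−1.63, adjusted p = 1.18e-05).

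Around the members, 14 genes with a mean of at least 10 normalized counts start within 500 kb of a member's start, and 5 of these 14 passed as lower with DHT in control and 5 in KO, where 5.37% and 3.24% of all genes tested did. A further 2 passed as higher in each line, where 6.04% of all genes did in control and 4.43% in KO. GRB10, an adaptor of insulin receptor signalling that starts 228057 bases from DDC, went from a mean of 17814 normalized counts in Ctr EtOH to 4692 in Ctr DHT and from 24627 to 9879 in KO (log2 −1.93 and −1.32). FIGNL1, on the other side of DDC, was lower by 0.79 in control. TMEM144, 28286 bases from the GASK1B start, was lower by 1.32 in control and by 1.19 in KO. MRPL50, the nearest to PLPPR1, stood at 1648 in Ctr EtOH and 1649 in Ctr DHT.

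PCED1B starts 356 bases from AMIGO2 on the opposite strand and had group means of 30.5 in Ctr EtOH and 8.1 in Ctr DHT. It shares 123 exon bases with AMIGO2, the libraries were made with a stranded kit, and the strand setting of the counting is not given in the sources used here, so reads of the pair over those bases cannot be assigned. Raw counts of PCED1B were 4 to 43 per library, well below those of AMIGO2 in EtOH. SLC38A4, an amino acid transporter gene 247551 bases from AMIGO2 and named here after its values were seen, went in the opposite direction, from group means of 3.9 in Ctr EtOH to 271 in Ctr DHT and from 2.5 to 303 in KO. OPRK1 and BCHE had no neighbour of that abundance within the window, and GBX2, the 1 near ACKR3, had group means from 27.8 to 47.1. GASK1B and DDC each overlap an antisense gene, but GASK1B-AS1 had at most 8 raw counts in a library and DDC-AS1 at most 3.

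Across the 6 group means the members traced a common profile, with log2 values centred per gene at a median of 1.97 in KO EtOH, 1.15 in Ctr EtOH, 0.33 in KO DHT, −1.05 in Ctr DHT, −1.13 in KO FM and −1.27 in Ctr FM. As a description over 6 groups, which share the contrast that chose the genes, Pearson's r of each member with the median of the others was highest for PLPPR1 (0.997), BCHE (0.937) and ACKR3 (0.932) and lowest for GASK1B (0.633). Of 11098 other genes with a mean of at least 100 normalized counts, the closest to the median profile were KCNIP3 (r = 0.999), ITM2C (0.997), CREBL2 (0.997), NPEPPS (0.996) and ANTXR1 (0.996). KCNIP3, a neuronal calcium sensor that binds potassium channels and DNA, had group means of 398 in Ctr EtOH, 152 in Ctr DHT and 145 in Ctr FM, and of 523, 268 and 152 in KO. ITM2C, CREBL2 and NPEPPS matched in shape with much smaller changes, at −0.31, −0.24 and −0.32 on the log2 scale with DHT in control.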

How the data were processed

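Poly(A) RNA of the 12 samples was made into stranded TruSeq libraries. The submitters' processing notes name CASAVA 1.7, TopHat2 2.0.11 and HTSeq 0.5.3p3. The authors deposited raw read counts per Ensembl gene on GRCh37, with no normalization. The strand setting and the annotation release are not given in the sources used here. HTSeq leaves out reads that match several places or several genes, and these and other uncounted reads made up 26.9% to 31.5% of all tallied reads.

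The gene counts summed to 20826843 to 30354666 per library, so 3 counts, used as a floor, equal 0.0988 to 0.144 CPM. Positions came from GENCODE on GRCh37, which held 55665 of 63677 identifiers. Genes with at least 10 counts in total were fitted with DESeq2 1.42.0 (R 4.3.3) in a single model with a coefficient per group, Wald tests and Benjamini-Hochberg adjustment over all genes tested. A gene passed at adjusted p of at most 0.05 and a fold change of at least 1.5, as in the study's methods. Log2 values are unshrunken and 95% intervals are Wald intervals. DESeq2 gives no adjusted p to the scarcest genes, and such genes never passed. Comparisons tested for the members used neither starved group, or both with equal weight. The fit was tested on simulated counts.

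The members and gene lists were chosen with earlier results of these data known. Named genes are the members, list genes that passed or had a mean of at least 100 normalized counts, the nearest neighbours and the 5 genes of closest profile. Replicates of a group differed by more than counting noise (chi-square per degree of freedom 3.19 to 36.5, widest in Ctr EtOH), so every library counts as 1 sample. The labels call the duplicates biological and give no batch. With 2 samples per group, the estimate of spread is shared over all groups. Replicate numbers did not pair the samples (the 15 correlations of deviations between groups ran from −0.41 to 0.69). Alternatives were edgeR 4.0.16, TMM scaling, other count filters, no fold minimum, only the samples compared, a replicate block and leaving out each library. Sequences came from RefSeq (GRCh38.p14), and no coordinates were converted between builds. Some genes of the lists and markers are not reported here.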

Additional observations from a re-analysis of the deposited data

Results flagged for a closer look

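For 4 genes the step from the starved midpoint to full medium differed between the lines by a test of the difference itself. By construction this difference is the line difference in full medium minus that in starved cells, both given above, so it is no separate result. Falls of unequal size enter it, so it is not free of the choice of genes. The KO value minus the control value was −1.78 on the log2 scale for PLPPR1, −1.44 for BCHE, −1.26 for GASK1B and −0.77 for ACKR3, so each was lower in KO full medium, relative to its own starved cells, than in control. For PLPPR1, BCHE and ACKR3 starved KO cells were higher, and the lines were closer in full medium. The widest apart there was ACKR3, at 1.253-fold (Wald test, adjusted p = 0.0323). GASK1B was lower in KO in full medium itself.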

How the results depend on the processing

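The members that passed were counted again under each alternative. Leaving out 1 library at a time gave 2 of 8 members differing between the lines in full medium, 6 in starved cells and 7 lower in KO full medium than the midpoint, every time, 4 to 5 lower in control full medium, and 3 to 5 for the difference between the lines. The members' median log2 change with DHT spanned −2.39 to −2.17 (control) and −1.82 to −1.66 (KO) over the same omissions. Requiring 10 counts in each library removed OPRK1 and gave a median of −1.41 over 7 members in KO. With a replicate block the counts were 2, 6, 5, 7 and 4, and the medians −2.26 and −1.77, so it changed none of these. Across the single members' comparisons, 728 values kept direction and side of the threshold, 10 newly passed, 7 no longer passed and 2 turned sign: BCHE in full medium (−0.162 to 0.085 over the omissions, the highest without KO FM replicate 1) and AMIGO2 in starved cells (−0.144 to 0.027, the highest without Ctr DHT replicate 1), neither called. The causes were not tested. The fit of only the samples compared was not run for the difference between the lines, which uses all 12 samples. Depth limits OPRK1 most.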
